A study of Homo sapiens with 24 samples.

Results

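The aminoacyl-tRNA synthetases are the enzymes that load each amino acid onto its transfer RNA, and 36 of their genes were followed here: 20 that code for the cytosolic enzymes and 16 that code for mitochondrial ones. They were picked by symbol from the 48162 genes in the deposited tables, and all 36 were found under the older symbols used there, in which the cytosolic genes lack the suffix 1 they now carry (AARS is now AARS1). The cell lines were hTERT-HPNE (HPNE), pancreatic cells immortalised with the catalytic subunit of telomerase, and HPDE-H6c7 (HPDE), from the pancreatic duct epithelium; both are labelled normal pancreas cells, and each is a single line. Both were grown in keratinocyte serum-free medium. In each line 3 libraries came from each of 4 treatments lasting 24 hours: fresh serum-free medium (untreated), the medium left over when vesicles were isolated (residual medium, the negative control), extracellular vesicles (EV) from PANC-1, a pancreatic cancer line, or EV from the cancer cells labelled PPCL-68, both at 1e10 vesicles per well. The design calls the 3 libraries of a group biological replicates. No member is altered by the design, so no genotype of a member could be checked against it.

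Cells keep separate sets of synthetases for their 2 translation systems: the cytosolic enzymes serve the ribosomes that make most proteins, and the mitochondrial enzymes, also coded in the nucleus, serve the ribosomes inside mitochondria that make a handful of respiratory chain subunits. Several cytosolic enzymes are held in a multisynthetase complex with the scaffold proteins AIMP1, AIMP2 and EEF1E1. Many cytosolic synthetase genes are known targets of ATF4, the transcription factor of the integrated stress response, which is made when amino acids run short or when the endoplasmic reticulum is loaded with unfolded protein. GARS and KARS each code for both a cytosolic and a mitochondrial form.

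Values are FPKM, reads scaled by gene length and by the reads of the library, so levels can be compared between genes. Libraries held 29209142 to 46490312 assigned reads. In each HPNE group 1 library lay apart from its 2 replicates over all genes, at 2.05 to 3.31 times the distance between those 2: replicate 3 of the untreated and residual-medium cells and replicate 1 of both EV groups. In HPDE the same ratio was at most 1.24. HPNE results are therefore also given without these 4 libraries. Each group then keeps the 2 libraries closest to each other, so its spread is made small by the choice. Calls from that setting are a description, and the shares of all genes called, where given, go up with them. Epithelial markers were nearly absent from HPNE, where 6 of them summed to 4.56 to 12.8 FPKM and CDH1, EPCAM and KRT19 stayed under 1 FPKM in all 12 libraries, against 1431 to 3498 FPKM in HPDE. Immune markers were at most 0.0655 FPKM in any library. TERT, the gene of the telomerase subunit used to immortalise HPNE, read 114 to 443 FPKM in HPNE and 1.10 to 3.00 FPKM in HPDE. SARS2, the mitochondrial seryl enzyme, has 2 rows that overlap on the same strand by 34452 bases, and was not tested. The first row has 1 to 24 reads per library and the second 0 reads in every library. How reads that fit both rows were counted was not checked, so these counts set no upper limit on its level. The class values below therefore cover 35 genes. The library kit did not keep strand, so reads from genes that overlap on opposite strands cannot be told apart. Of the 36 members, 10 overlap a protein-coding gene with a mean of at least 1 FPKM.

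In untreated cells the cytosolic enzymes were the more abundant class. In untreated HPNE cells mean levels of the cytosolic genes ran from 12.7 FPKM for FARSB, a subunit of the phenylalanyl enzyme, to 132 FPKM for SARS, the seryl enzyme, with a median over genes of 48.01 FPKM. The 15 mitochondrial genes ran from 1.69 FPKM for MARS2 to 37.2 FPKM for IARS2, the isoleucyl enzyme, with a median of 6.07 FPKM. In untreated HPDE cells the cytosolic range was 11.9 FPKM (CARS, cysteinyl) to 149.9 FPKM (KARS, lysyl) with a median of 66.8 FPKM, and the mitochondrial range was 3.74 FPKM (PARS2, prolyl) to 57.5 FPKM (IARS2) with a median of 14.3 FPKM. Untreated HPDE cells had higher levels than untreated HPNE cells of 14 cytosolic genes and lower levels of 4, and higher levels of 14 mitochondrial genes and lower levels of 1 (limma, Benjamini-Hochberg adjusted over all genes, threshold 0.05). The background was high, since 83.8% of all genes tested were called, 56.0% higher and 27.7% lower, with a median log2 difference over all genes of 0.38. The median log2 difference was 0.38 for the cytosolic genes and 0.69 for the mitochondrial genes, so the mitochondrial median lay above that of all genes and the cytosolic median beside it. With size factors in place of library totals the all-gene median fell to 0.06, and the class medians were 0.02 and 0.36. The cytosolic counts then became 9 higher and 6 lower and the mitochondrial counts 9 and 1: NARS, YARS, WARS, MARS and CARS2 went from called higher to negative values that were not called, EPRS, LARS2, WARS2, FARS2 and PARS2 also lost their calls, and AARS (-0.49) and IARS (-0.40) were called lower. The mitochondrial gene with the greatest difference was MARS2, which read 1.61, 1.55 and 1.91 FPKM in untreated HPNE and 14.5, 13.4 and 15.4 FPKM in untreated HPDE libraries.

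The distance between the classes widened in both lines under vesicles. The cytosolic mean of log2(FPKM + 1) was 5.89 ± 0.06 (SD, n = 3 libraries) in HPDE in residual medium, 6.29 ± 0.03 with PANC-1 EV and 6.19 ± 0.04 after PPCL-68 EV. The mitochondrial mean went the other way in the same libraries, from 3.86 ± 0.02 to 3.66 ± 0.0032 and 3.62 ± 0.01. The cytosolic minus mitochondrial gap was 2.01 ± 0.05 in untreated HPDE cells and 2.03 ± 0.04 in residual medium, against 2.62 ± 0.03 with PANC-1 EV and 2.57 ± 0.05 after PPCL-68 EV, with no overlap between the vesicle libraries and the others. The summed epithelial markers of HPDE moved with the treatments too, at 3122 to 3498 FPKM in residual medium, 1549 to 1811 FPKM after PANC-1 EV and 1431 to 1444 FPKM after PPCL-68 EV, against 2763 to 3005 FPKM untreated. The 5 mesenchymal markers, which sum to 8520 to 12540 FPKM in HPNE, summed in HPDE to 78.8 to 88.8 FPKM untreated, 102.6 to 120.6 FPKM in residual medium, 94.1 to 105.2 FPKM after PANC-1 EV and 131.9 to 151.9 FPKM after PPCL-68 EV, and CDH2 stayed under 1 FPKM in all 12 libraries. The part of these markers in the results was not tested. In bulk RNA, fewer cells of a kind and less RNA per cell cannot be told apart. In HPNE the gap was 2.56, 2.51 and 2.47 in the untreated libraries, 2.33, 2.34 and 2.74 in residual medium, 2.76, 2.87 and 2.84 with PANC-1 EV and 2.82, 2.81 and 2.89 with PPCL-68 EV. Here too all 6 vesicle libraries lay above the other 6, but replicate 3 in residual medium, 1 of the 4 libraries that lie apart, stood at 2.74 against 2.76 for the lowest of them. The mitochondrial mean in HPNE did not separate the groups: it was 2.93 ± 0.06 untreated, 3.05 ± 0.16 in residual medium, 2.97 ± 0.02 with PANC-1 EV and 2.97 ± 0.04 after PPCL-68 EV.

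**Figure D1:**
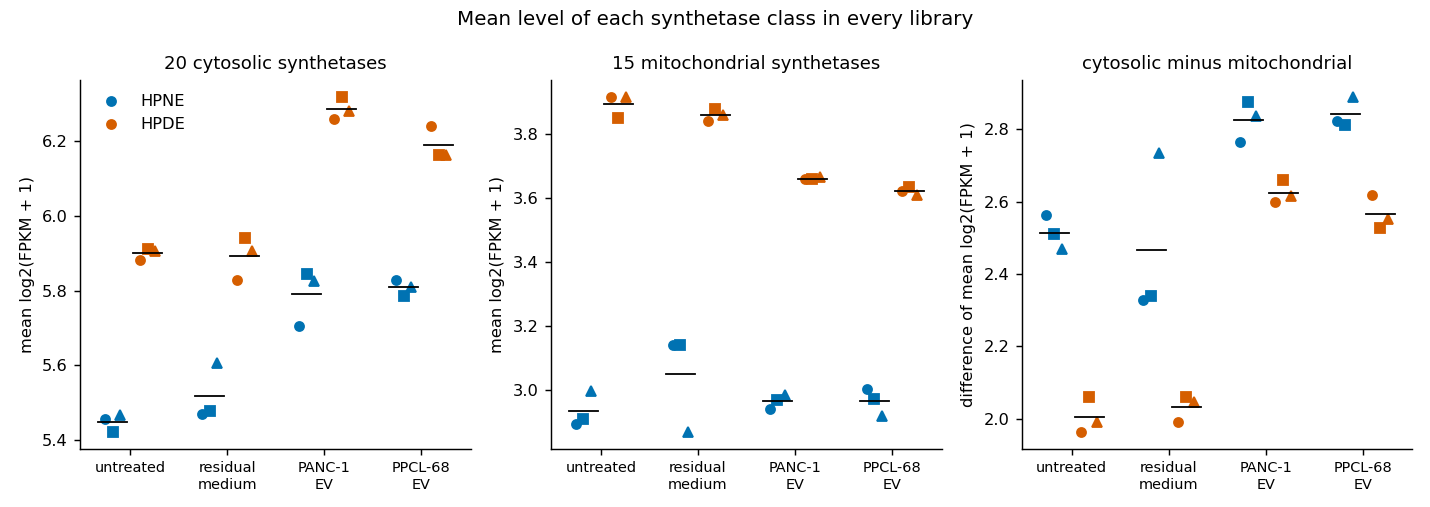
Mean log2(FPKM + 1) over the 20 cytosolic genes (left), over the 15 mitochondrial genes (middle) and the difference of both (right) in each of 24 libraries, by treatment and line; circles, squares and triangles are replicates 1, 2 and 3 and bars are means of 3, and the vertical axes do not start at 0. The gap is 2.62 and 2.57 in HPDE with vesicles against 2.03 in residual medium, and HPNE replicate 3 in residual medium (triangle) stands at 2.74.

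Against residual medium, the cytosolic genes split into a larger set that rose and a smaller set that did not, in both lines and with both vesicle sources. In HPDE cells given PANC-1 EV, 12 of the 20 cytosolic genes rose and 4 fell, where 63.3% of all 12223 genes tested were called, 28.2% higher and 35.1% lower (limma, adjusted p under 0.05, as in all calls below). The 12 were AARS, CARS, EPRS, GARS, IARS, LARS, MARS, NARS, SARS, TARS, WARS and YARS. With PPCL-68 EV, 11 of the same 12 rose and 5 of the other 8 fell, where 67.7% of all genes were called, 31.3% higher and 36.4% lower; the exception was TARS (adjusted p = 0.101, limma). HPDE values with either vesicle share the same residual-medium libraries. In HPNE cells, which share no library with HPDE, PANC-1 EV raised 11 of the 12 and lowered 1 of the other 8, against a background of 24.2% of 11503 genes called, 13.9% higher and 10.3% lower; EPRS was not called (adjusted p = 0.138, limma). PPCL-68 EV raised 11 of the 12 in HPNE and lowered 3 of the other 8, against a background of 39.9% called, 20.3% higher and 19.7% lower, and AARS was not called (adjusted p = 0.0566, limma). None of the other 8 genes rose in any of these 4 comparisons with limma on log2 values, with voom or at an unadjusted p under 0.05 (0 of 8 each time). For limma in HPDE with PANC-1 EV this was fixed in advance by how the 8 were picked. The median log2 difference of the 12 was 0.73 and 0.78 in HPDE and 0.65 and 0.75 in HPNE (PANC-1 EV, then PPCL-68 EV), and that of the 8 was -0.13 and -0.28 in HPDE and -0.21 and -0.40 in HPNE. Medians over all genes lay between -0.04 and 0.02. The HPNE median of the 8 was positive when untreated cells were the control, as given below. Without the 4 HPNE libraries that lie apart all 12 rose with either vesicle and 7 of the other 8 fell, while the share of all genes called went to 59.1% for PANC-1 EV and 65.7% for PPCL-68 EV. The 12 and the 8 were separated by their HPDE response to PANC-1 EV after values had been seen, so the split carries no test of its own.

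**Figure D2:**
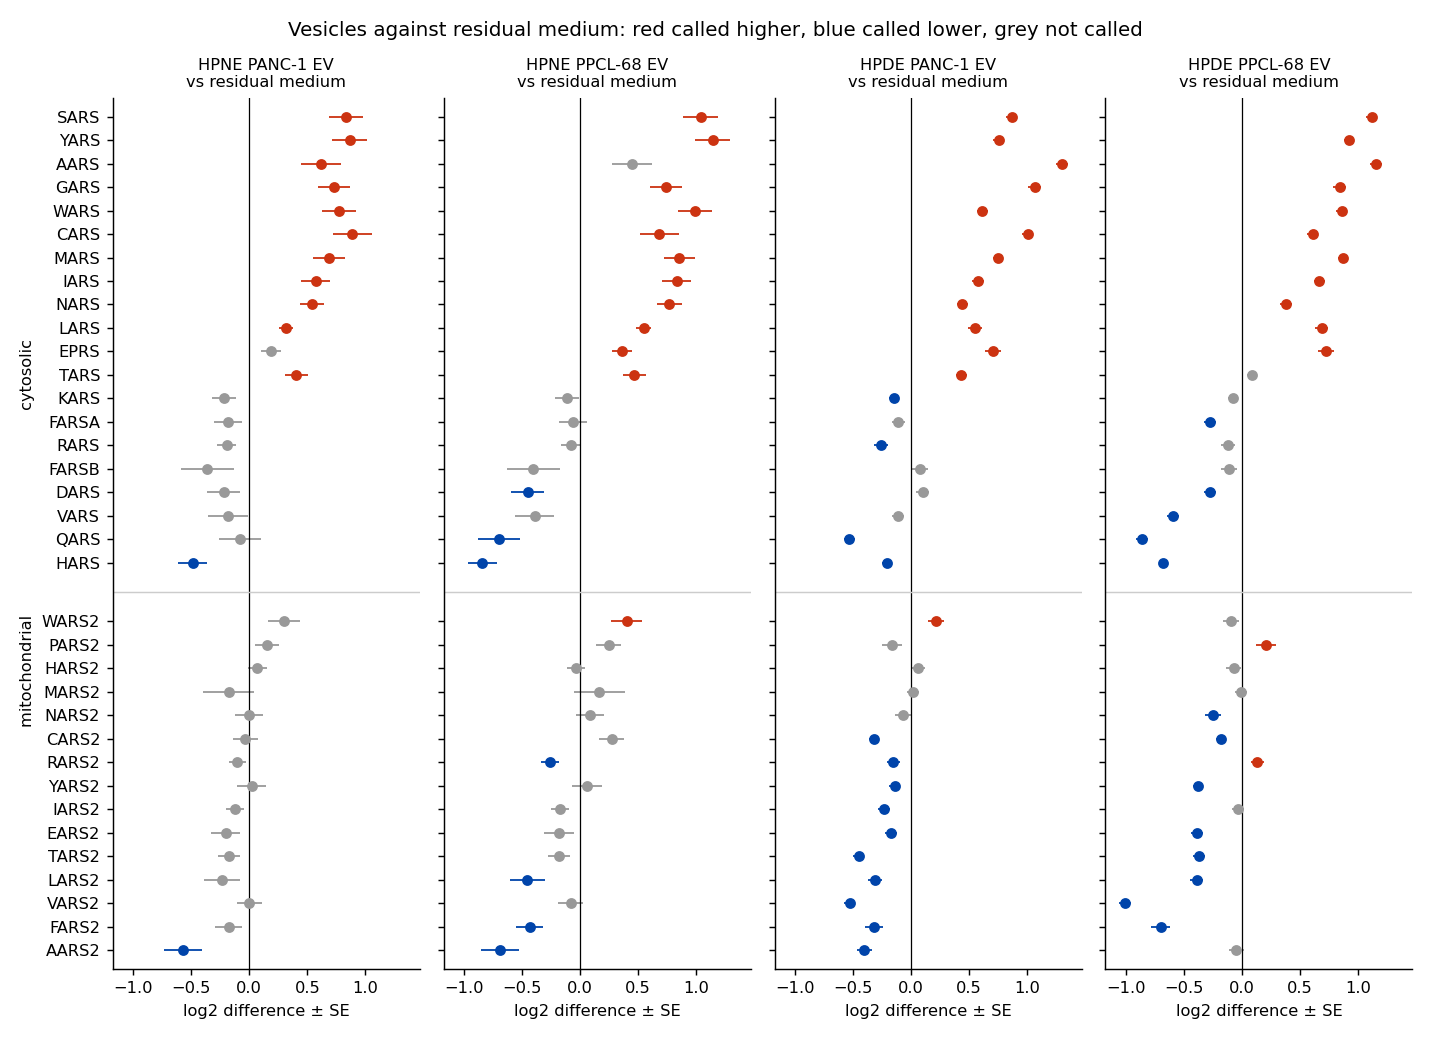
Log2 difference of vesicle-treated from residual-medium cells, on the log2(FPKM + 1) scale, for each of 35 synthetase genes in 4 comparisons; points are fitted differences and bars are ± 1 standard error, red called higher, blue called lower, grey not called. The upper block is cytosolic, and in HPDE with PANC-1 EV its 12 upper genes run from 0.43 to 1.30 while the other 8 run from -0.53 to 0.10.

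The largest HPDE change belonged to AARS, the alanyl enzyme. AARS read 65.0, 72.9 and 74.4 FPKM in HPDE in residual medium, 172, 175 and 180 FPKM with PANC-1 EV and 157, 160 and 158 FPKM with PPCL-68 EV. Every vesicle library therefore lay above every control library, untreated ones included at 71.9, 75.9 and 75.3 FPKM. The log2 differences from residual medium were 1.30 (SE 0.05, adjusted p = 4.29e-11, limma) and 1.15 (SE 0.05, adjusted p = 8.37e-11). GARS, the glycyl enzyme that serves both compartments, stood at 79.5, 89.0 and 88.3 FPKM in residual medium, 172, 193 and 175 FPKM with PANC-1 EV and 164, 147 and 152 FPKM with PPCL-68 EV, log2 differences of 1.06 and 0.84 (SE 0.06 each). CARS rose from 11.2, 11.55 and 11.8 FPKM to 23.7, 25.2 and 23.7 FPKM (PANC-1 EV) or 19.1, 17.9 and 17.4 FPKM (PPCL-68 EV), by 1.01 and 0.61 (SE 0.05 each). These 3 genes were higher with PANC-1 EV than with PPCL-68 EV.

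SARS, YARS and WARS, the seryl, tyrosyl and tryptophanyl enzymes, were higher with PPCL-68 EV than with PANC-1 EV in HPDE. SARS read 86.4, 93.7 and 85.3 FPKM in residual medium, 159, 162 and 165 FPKM with PANC-1 EV and 205, 189 and 184 FPKM with PPCL-68 EV. YARS read 63.8, 68.4 and 67.1 FPKM, then 109.6, 114 and 115 FPKM, then 132, 127 and 122 FPKM. WARS read 64.1, 67.3 and 64.1 FPKM, then 96.8, 106 and 98.99 FPKM, then 123, 116 and 118 FPKM. In all 3 the 2 vesicle groups did not overlap, and the log2 differences from residual medium were 0.87 and 1.12 for SARS, 0.75 and 0.92 for YARS, and 0.62 and 0.86 for WARS (SE 0.04 to 0.05). The other 6 of the 12 rose by 0.43 (TARS, threonyl) to 0.75 (MARS, methionyl) with PANC-1 EV. MARS overlaps DDIT3, a stress-response transcription factor gene on the opposite strand, by 982 bases, and DDIT3 also rose. The rise over residual medium in HPDE was 164 CPM (reads scaled to the library's assigned reads) for MARS against 51.2 CPM for DDIT3 with PANC-1 EV, and 199.8 against 35.5 CPM with PPCL-68 EV.

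EPRS, IARS and LARS sit in the multisynthetase complex and also rose in HPDE. EPRS read 49.3, 62.7 and 58.0 FPKM in residual medium, 95.1, 91.2 and 91.6 FPKM with PANC-1 EV and 98.7, 89.0 and 93.3 FPKM with PPCL-68 EV, differences of 0.71 and 0.72 (SE 0.07 each). IARS, the isoleucyl enzyme, read 65.5, 75.7 and 74.5 FPKM, then 109.9, 105.4 and 107.6 FPKM, then 118, 111 and 115 FPKM, differences of 0.58 and 0.67 (SE 0.05 each). LARS, the leucyl enzyme, read 41.9, 48.4 and 49.8 FPKM, then 71.9, 66.8 and 67.7 FPKM, then 78.0, 72.2 and 76.6 FPKM, differences of 0.55 and 0.69 (SE 0.06 each). For all 3 the residual-medium libraries lay below every vesicle library, and replicate 1 was the lowest of them. NARS, the asparaginyl enzyme outside the complex, rose by 0.44 and 0.38 in HPDE and by 0.54 and 0.77 in HPNE.

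In HPNE the same genes moved with a wider spread. YARS, the largest HPNE riser with PPCL-68 EV, read 39.9, 40.8 and 60.5 FPKM in residual medium, 71.4, 92.5 and 92.7 FPKM with PANC-1 EV and 104, 103 and 102 FPKM with PPCL-68 EV. Its log2 differences were 0.86 (SE 0.15, adjusted p = 0.00343, limma) and 1.14 (SE 0.15, adjusted p = 0.000333). Replicate 3 in residual medium was the high control, and it lay below every vesicle library. SARS read 87.3, 89.3 and 130.4 FPKM in residual medium, 166, 186 and 189 FPKM with PANC-1 EV and 199.7, 208 and 215 FPKM with PPCL-68 EV, differences of 0.83 and 1.04 (SE 0.15 each). GARS read 123, 122 and 159 FPKM, then 189, 241 and 243 FPKM, then 192, 240.0 and 245 FPKM, differences of 0.73 and 0.74 (SE 0.14 each). CARS read 10.4, 11.3 and 19.02 FPKM, then 24.3, 26.5 and 24.4 FPKM, then 22.1, 21.4 and 21.3 FPKM, differences of 0.89 and 0.68 (SE 0.17 each). WARS read 34.1, 32.8 and 49.1 FPKM, then 66.3, 63.8 and 67.2 FPKM, then 84.6, 72.3 and 73.1 FPKM, differences of 0.77 and 0.99 (SE 0.15 each). In each of these genes replicate 3 was again the highest residual-medium library, and the vesicle libraries did not overlap the controls.

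AARS was the exception in HPNE. It read 56.6, 55.9 and 89.7 FPKM in residual medium, 96.6, 105 and 103 FPKM with PANC-1 EV and 106, 84.2 and 82.2 FPKM with PPCL-68 EV, so that replicate 3 in residual medium lay above 2 of the 3 PPCL-68 EV libraries. The PANC-1 EV difference was 0.62 (SE 0.17, adjusted p = 0.0245, limma), and its call was lost without PANC-1 EV replicate 2 or 3 or residual-medium replicate 1 or 2 (adjusted p 0.0646 to 0.105). The PPCL-68 EV difference was 0.45 (SE 0.17), and without residual-medium replicate 3 it was 0.67 and called (adjusted p = 0.00139, limma). The TARS call with PANC-1 EV in HPNE (0.40, SE 0.10, adjusted p = 0.0135, limma) was also lost without any 1 of the same 4 libraries (adjusted p 0.0506 to 0.0649). EPRS, the fused glutamyl and prolyl enzyme, read 53.2, 51.9 and 56.1 FPKM in residual medium, 55.3, 64.6 and 64.6 FPKM with PANC-1 EV and 62.7, 73.0 and 72.3 FPKM with PPCL-68 EV, where it rose by 0.36 (SE 0.09). With PANC-1 EV its replicate 1 lay within the control range. LARS showed the smallest spread of the HPNE risers: it read 27.0, 26.8 and 27.9 FPKM, then 32.9, 34.6 and 34.7 FPKM, then 41.2, 40.9 and 38.6 FPKM, differences of 0.31 and 0.55 (SE 0.06 each). IARS read 67.5, 67.5 and 95.9 FPKM, then 108.6, 114 and 117 FPKM, then 146, 132 and 130.1 FPKM, differences of 0.57 and 0.83 (SE 0.12 each).

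**Figure D3:**
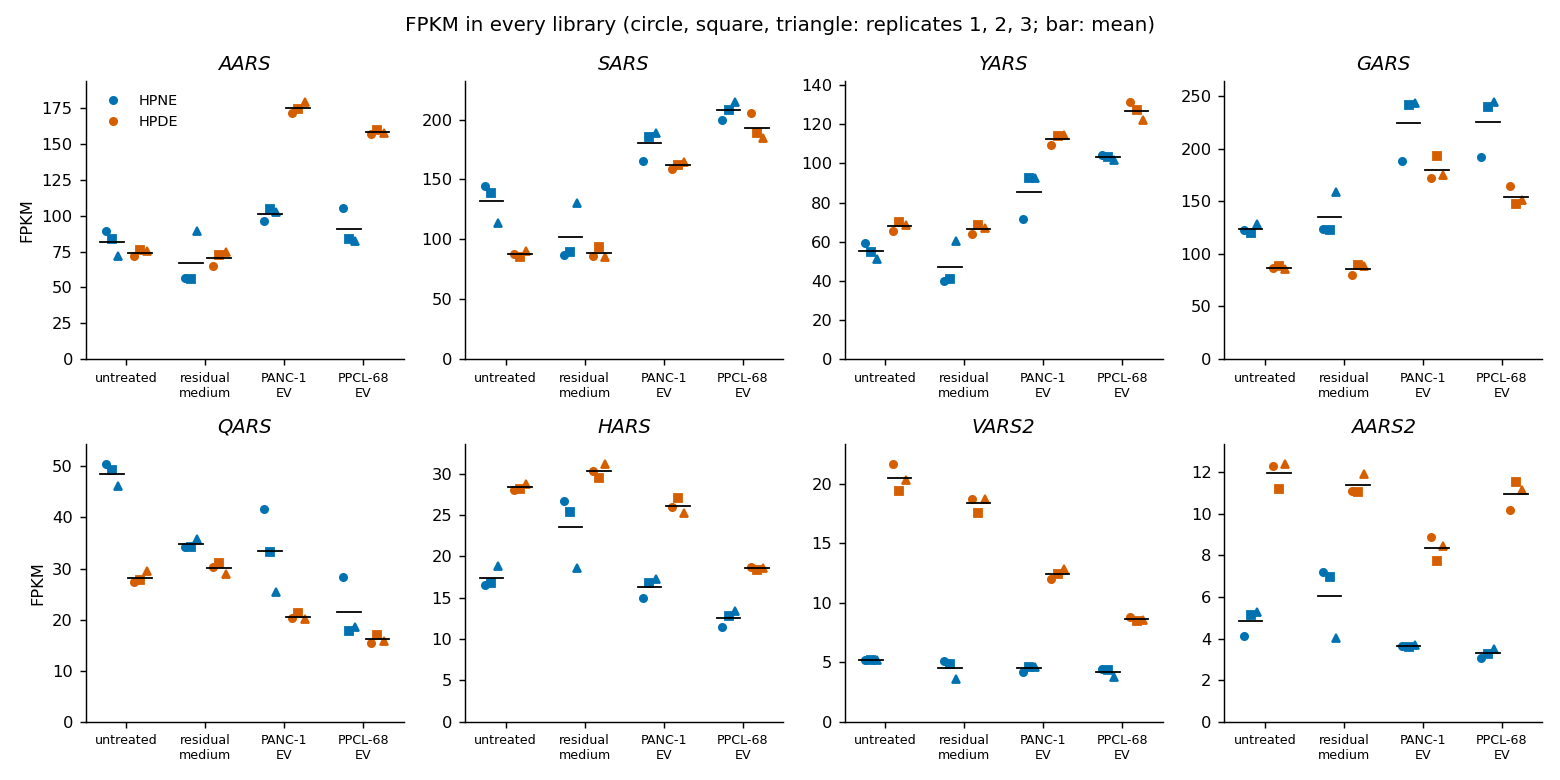
FPKM of 4 cytosolic genes that rose (top), 2 cytosolic genes that did not and 2 mitochondrial genes (bottom) in each library, by treatment; circles, squares and triangles are replicates 1, 2 and 3, bars are means of 3, and axes start at 0. In HPDE, AARS sits at 157 to 180 FPKM in the 6 vesicle libraries against 65.0 to 75.9 FPKM in the 6 controls, and VARS2 at 8.47 to 12.8 against 17.6 to 21.6 FPKM.

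The promoters of the 12 genes that rose were read for the core of the C/EBP-ATF composite element, the DNA sequence through which ATF4 and its partners act on amino-acid response genes. The window was 300 bases, from 250 before the start of the gene to 50 after it, taken from a table of RefSeq promoters (GRCh38.p14), in which 30 of the 36 members were matched, 9 of them with 2 windows for 2 start sites. The motif searched was TGATGNAA on either strand (TTNCATCA when read from the other strand), and it lay in 3.62% of all 35116 windows and in at least 1 window of 4.46% of all 27305 genes in the table. By windows, it was found in 7 of 15 for the genes that rose, in 0 of 6 for the 8 genes that did not, and in 1 of 18 for the mitochondrial genes. By genes, these were 7 of 10, 0 of 6 and 1 of 14. The exact form TGATGCAA, which is contained in the first motif, lay in 6 of the 15 windows (6 of the 10 genes) and in 0.866% of all windows (1.08% of all genes). CARS, GARS and TARS each held a match in 1 of their 2 windows. The stretches that hold the matches are printed here, 7 from the cytosolic genes that rose and 1 from the mitochondrial YARS2. Each runs 5′ to 3′ on the strand of its gene, with the match in capitals.
AARS, chr16:70289646-70289733, minus strand: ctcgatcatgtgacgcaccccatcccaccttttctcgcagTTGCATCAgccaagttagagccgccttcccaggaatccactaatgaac
CARS, chr11:3057407-3057436, minus strand: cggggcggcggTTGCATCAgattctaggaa
GARS, chr7:30594805-30594877, plus strand: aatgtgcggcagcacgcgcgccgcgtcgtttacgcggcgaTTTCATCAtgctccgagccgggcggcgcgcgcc
IARS, chr9:92293698-92293750, minus strand: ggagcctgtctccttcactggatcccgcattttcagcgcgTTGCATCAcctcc
MARS, chr12:57488053-57488082, plus strand: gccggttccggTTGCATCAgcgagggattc
NARS, chr18:57621804-57621833, minus strand: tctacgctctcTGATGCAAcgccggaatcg
TARS, chr5:33440956-33440985, plus strand: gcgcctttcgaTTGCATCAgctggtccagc
YARS2, chr12:32756047-32756134, minus strand: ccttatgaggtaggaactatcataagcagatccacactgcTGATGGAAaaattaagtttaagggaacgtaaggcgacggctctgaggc
In 5 of the 7 cytosolic genes (CARS, IARS, MARS, NARS and TARS) the match began within 14 bases of the start, in GARS 33 bases and in AARS 187 bases before it. The windows of EPRS, SARS and WARS held no match, and LARS, YARS, DARS, VARS, AARS2 and VARS2 were not searched. A match is a description of these letters, and whether a factor bound there was not measured. YARS2 carries the motif and fell in HPDE.

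The 8 cytosolic genes that did not rise were DARS, FARSA, FARSB, HARS, KARS, QARS, RARS and VARS. The lowest of them with vesicles in HPDE was QARS, the glutaminyl enzyme, which read 30.4, 31.2 and 28.8 FPKM in residual medium, 20.3, 21.3 and 20.02 FPKM with PANC-1 EV and 15.50, 17.0 and 15.9 FPKM with PPCL-68 EV. The 3 groups did not overlap, and the log2 differences from residual medium were -0.53 and -0.86 (SE 0.05 each, adjusted p = 4.62e-07 and 1.87e-09, limma). HARS, the histidyl enzyme, read 30.3, 29.4 and 31.1 FPKM, then 26.0, 27.0 and 25.2 FPKM, then 18.7, 18.4 and 18.6 FPKM, differences of -0.21 and -0.68 (SE 0.04 each). VARS, the valyl enzyme, read 69.2, 65.4 and 67.3 FPKM, then 57.3, 66.3 and 63.8 FPKM, then 42.7, 45.0 and 45.0 FPKM. It fell with PPCL-68 EV alone (-0.60, SE 0.05), since the PANC-1 EV group overlapped the control (-0.11, adjusted p = 0.0791, limma); without PANC-1 EV replicate 2 that difference was -0.15 and called. KARS fell by 0.15 and RARS by 0.26 on the log2 scale with PANC-1 EV, and DARS and FARSA each by 0.28 with PPCL-68 EV. The 2 subunits of the phenylalanyl enzyme were not called with PANC-1 EV: FARSA read 65.1, 59.3 and 58.6 FPKM in residual medium, 52.7, 59.9 and 56.9 FPKM with PANC-1 EV and 51.5, 50.7 and 48.2 FPKM with PPCL-68 EV. FARSB read 32.6, 39.6 and 38.9 FPKM, then 38.8, 38.8 and 39.3 FPKM, then 37.3, 33.7 and 31.6 FPKM, with overlap throughout. RARS, the arginyl enzyme, read 73.2, 80.7 and 76.2 FPKM, then 61.7, 67.7 and 62.7 FPKM, then 77.5, 66.3 and 67.9 FPKM, so that only the PANC-1 EV group lay below the control.

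In HPNE, HARS read 26.7, 25.3 and 18.6 FPKM in residual medium, 14.98, 16.8 and 17.3 FPKM with PANC-1 EV and 11.47, 12.8 and 13.3 FPKM with PPCL-68 EV, differences of -0.49 (SE 0.12, adjusted p = 0.0177, limma) and -0.84 (SE 0.12, adjusted p = 0.000556). The first call was lost without PANC-1 EV replicate 1 or residual-medium replicate 1 or 2 (adjusted p 0.0558 to 0.08). QARS read 34.2, 34.2 and 35.8 FPKM, then 41.7, 33.3 and 25.4 FPKM, then 28.3, 17.7 and 18.5 FPKM. Its libraries spread widely with PANC-1 EV (-0.08, not called), and it fell by 0.70 with PPCL-68 EV (SE 0.18, adjusted p = 0.0117, limma; 0.0502 without PPCL-68 EV replicate 2). DARS, the aspartyl enzyme, fell by 0.45 with PPCL-68 EV, a call lost without any 1 of 4 libraries (residual-medium replicate 2 or 3, PPCL-68 EV replicate 2 or 3; adjusted p 0.0529 to 0.0991). Replicates 1 and 2 in residual medium carried the higher HPNE values of several of the 8. FARSA read 36.5, 37.3 and 28.6 FPKM in residual medium, 27.8, 29.2 and 32.4 FPKM with PANC-1 EV and 31.5, 31.2 and 34.8 FPKM with PPCL-68 EV. KARS read 71.7, 66.9 and 51.9 FPKM, then 54.2, 53.5 and 54.3 FPKM, then 58.9, 55.8 and 59.8 FPKM. RARS read 47.0, 47.0 and 39.0 FPKM, then 37.8, 40.4 and 37.1 FPKM, then 42.7, 40.7 and 41.7 FPKM. VARS and FARSB had the same shape, with 42.4, 41.9 and 30.1 FPKM for VARS in residual medium and 25.9 to 36.5 FPKM with vesicles. None of these 5 was called against residual medium. HARS shares 599 bases with HARS2 on the opposite strand, and HARS2 was not called in any of the 4 comparisons.

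Membership of the multisynthetase complex did not follow the split. Of its 8 enzyme genes, EPRS, IARS, LARS and MARS were among those that rose and DARS, KARS, QARS and RARS among those that did not. The 2 genes that serve both compartments also parted: GARS rose in all 4 comparisons with residual medium, while KARS read 149, 154 and 152 FPKM in HPDE in residual medium, 130.4, 142 and 138 FPKM with PANC-1 EV and 151, 142 and 139 FPKM with PPCL-68 EV. KARS fell in the first of these only, by 0.15 (SE 0.04), and with size factors not even there (-0.12, adjusted p = 0.0608, limma).

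Among the mitochondrial enzymes, most of those called in HPDE fell. With PANC-1 EV 10 of 15 fell and 1 rose, and with PPCL-68 EV 8 fell and 2 rose, against the HPDE backgrounds given above. With voom 0 were called higher with PPCL-68 EV. The median log2 differences were -0.17 and -0.18, where those of all genes were -0.04 and -0.03. The deepest fall belonged to VARS2, the mitochondrial valyl enzyme, which read 18.7, 17.6 and 18.7 FPKM in residual medium, 11.96, 12.4 and 12.8 FPKM with PANC-1 EV and 8.83, 8.47 and 8.58 FPKM with PPCL-68 EV, differences of -0.53 and -1.01 (SE 0.05 each, adjusted p = 4.97e-07 and 4.16e-10, limma). FARS2, the phenylalanyl enzyme, read 9.88, 9.23 and 9.80 FPKM, then 7.35, 7.71 and 7.51 FPKM, then 4.94, 6.68 and 5.15 FPKM, differences of -0.32 and -0.70 (SE 0.08 each). In both genes the vesicle groups lay apart from the control and from each other. LARS2, the leucyl enzyme, read 6.02, 6.41 and 6.44 FPKM, then 5.21, 4.55 and 4.89 FPKM, then 4.71, 4.45 and 4.51 FPKM, differences of -0.31 and -0.39 (SE 0.06 each). TARS2 and EARS2, the threonyl and glutamyl enzymes, fell by 0.45 and 0.17 with PANC-1 EV and by 0.37 and 0.39 with PPCL-68 EV.

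Some mitochondrial genes answered 1 vesicle source and not the other. AARS2, the alanyl enzyme, read 11.1, 11.1 and 11.9 FPKM in HPDE in residual medium, 8.90, 7.73 and 8.46 FPKM with PANC-1 EV (-0.40, SE 0.06, called) and 10.2, 11.6 and 11.2 FPKM with PPCL-68 EV (-0.05, not called). IARS2, the most abundant of the class, read 52.7, 59.0 and 54.2 FPKM, then 45.8, 49.8 and 44.9 FPKM (-0.24, SE 0.05, called), then 55.8, 52.5 and 53.5 FPKM (-0.03, not called). The 2 vesicle groups differed from each other in both genes, by -0.35 for AARS2 and -0.20 for IARS2 (PANC-1 EV minus PPCL-68 EV, adjusted p = 0.000332 and 0.00424, limma). CARS2 and YARS2, the cysteinyl and tyrosyl enzymes, fell with both. CARS2 read 18.3, 17.7 and 17.9 FPKM in residual medium, 14.2, 14.1 and 14.2 FPKM with PANC-1 EV and 15.33, 16.2 and 15.7 FPKM with PPCL-68 EV. YARS2 read 24.9, 24.6 and 23.9 FPKM, then 21.1, 22.8 and 22.3 FPKM, then 18.9, 18.5 and 18.5 FPKM; its PANC-1 EV call (-0.14) was lost without PANC-1 EV replicate 1 (adjusted p = 0.0538, limma). Neither gene's vesicle libraries overlapped the control. HARS2, the histidyl enzyme, read 12.7, 13.3 and 13.1 FPKM, then 14.0, 13.9 and 13.1 FPKM, then 11.3, 12.9 and 13.1 FPKM and was not called. MARS2, the methionyl enzyme, was not called either, and NARS2, the asparaginyl enzyme, fell with PPCL-68 EV alone (-0.25, SE 0.07).

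The few rises were small: WARS2, the tryptophanyl enzyme, rose by 0.22 with PANC-1 EV, and PARS2 and RARS2, the prolyl and arginyl enzymes, by 0.21 and 0.13 with PPCL-68 EV (adjusted p = 0.0121, 0.0459 and 0.0495, limma). WARS2 read 5.06, 5.55 and 4.53 FPKM in residual medium, 6.21, 5.97 and 5.87 FPKM with PANC-1 EV and 4.85, 4.34 and 4.81 FPKM with PPCL-68 EV. PARS2 read 3.40, 4.16 and 3.58 FPKM, then 2.99, 3.53 and 3.08 FPKM, then 5.15, 4.21 and 4.02 FPKM. RARS2 read 17.1, 19.2 and 19.3 FPKM, then 16.7, 16.3 and 16.5 FPKM, then 21.2, 20.9 and 19.1 FPKM. With PPCL-68 EV, PARS2 and RARS2 overlapped the control, and neither was called with voom (adjusted p = 0.0546 and 0.0655). The WARS2 call was lost without residual-medium replicate 3 (adjusted p = 0.0713). That of PARS2 was lost without residual-medium replicate 1 or 3 or PPCL-68 EV replicate 1 (0.114 to 0.229), and that of RARS2 without residual-medium replicate 1 or PPCL-68 EV replicate 1 or 2 (0.136 to 0.22). RARS2 fell by 0.15 with PANC-1 EV, a call lost without any 1 of 4 libraries (adjusted p 0.057 to 0.107).

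In HPNE 0 of 15 mitochondrial genes rose and 1 fell with PANC-1 EV, against 13.9% of all genes called higher and 10.3% lower (limma; voom also called 0 higher, and 1 had an unadjusted p under 0.05). With PPCL-68 EV 1 rose and 4 fell, a share near that of all genes, of which 20.3% were called higher and 19.7% lower. The medians were -0.10 and -0.08. AARS2 read 7.21, 6.94 and 4.05 FPKM in residual medium, 3.64, 3.61 and 3.71 FPKM with PANC-1 EV and 3.07, 3.28 and 3.51 FPKM with PPCL-68 EV. It fell with both (-0.57, SE 0.16, adjusted p = 0.0267, limma, and -0.69, SE 0.16, adjusted p = 0.00674), but the first call was lost without any 1 of 5 of the 6 libraries, the exception being residual-medium replicate 3 (adjusted p 0.0606 to 0.113). FARS2 read 8.45, 7.21 and 6.35 FPKM in residual medium, 6.43, 5.85 and 6.74 FPKM with PANC-1 EV and 5.48, 5.203 and 4.73 FPKM with PPCL-68 EV. LARS2 read 8.90, 9.03 and 6.96 FPKM, then 5.66, 7.72 and 7.35 FPKM, then 5.28, 5.79 and 6.18 FPKM. RARS2 read 20.8, 21.3 and 21.6 FPKM, then 20.5, 19.4 and 19.1 FPKM, then 19.6, 16.7 and 16.6 FPKM. With PPCL-68 EV the groups did not overlap the control, and these 3 fell by 0.44, 0.46 and 0.26. RARS2 had been called higher in HPDE, a call that was lost with voom, as given above. WARS2 read 3.16, 3.01 and 2.87 FPKM in residual medium and 4.17, 4.48 and 3.24 FPKM with PANC-1 EV, and rose by 0.40 with PPCL-68 EV. The WARS2 rise rests on PPCL-68 EV replicate 1 at 5.56 FPKM beside 3.86 and 3.65 FPKM, and without it the difference was 0.25 (adjusted p = 0.109, limma). The LARS2 call was lost without any 1 of 5 libraries (adjusted p 0.0527 to 0.111), that of RARS2 without any 1 of 3 (0.0554 to 0.0733) and that of FARS2 without residual-medium replicate 1 (0.0573). Without the 4 HPNE libraries that lie apart, 8 mitochondrial genes fell with either vesicle and at most 1 rose. The shares of all genes called in that setting, given above, were also higher than in the main fits.

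Each mitochondrial enzyme was also set against the cytosolic enzyme for the same amino acid, in 16 pairs. In HPDE the ratio of cytosolic to mitochondrial FPKM was higher in all 3 vesicle libraries than in all 3 residual-medium libraries for 14 of the 16 pairs, with either vesicle. In HPNE this held for 7 pairs after PANC-1 EV, with the order reversed in 2. After PPCL-68 EV it held for 8 pairs, with the order reversed in 1. EPRS and FARS2 each enter 2 of the pairs. Of all single genes, 63.3% and 67.7% were called in these comparisons in HPDE and 24.2% and 39.9% in HPNE. The share of other gene pairs that part in this way was not computed, so the counts of pairs have no background. Under PANC-1 EV the alanyl pair of HPDE moved furthest. AARS was 5.85, 6.59 and 6.24 times AARS2 in residual medium and 19.3, 22.6 and 21.3 times in these cells. Its ratio was 15.4, 13.8 and 14.2 in HPDE under PPCL-68 EV. There the mean tyrosyl ratio went up by a larger factor, from 2.71 to 6.81, against 6.22 to 14.5 for the alanyl pair. The cysteinyl pair crossed 1. CARS was below CARS2 in all 6 HPDE control libraries, at 0.61 to 0.72 times its level, and above it with PANC-1 EV (1.66, 1.78 and 1.67 times) and PPCL-68 EV (1.25, 1.11 and 1.11 times). In HPNE the same ratio was 1.36, 1.28 and 1.34 untreated, 0.66, 0.65 and 1.46 in residual medium, 1.78, 1.63 and 1.64 with PANC-1 EV and 1.21, 1.04 and 1.22 with PPCL-68 EV, so only residual-medium replicates 1 and 2 fell below 1. The leucyl pair went from 6.95, 7.56 and 7.74 in HPDE in residual medium to 13.8, 14.7 and 13.8 with PANC-1 EV and 16.6, 16.2 and 17.0 with PPCL-68 EV. The tyrosyl pair went from 2.56, 2.78 and 2.81 to 5.18, 4.99 and 5.13 and then to 6.96, 6.87 and 6.60. In every pair but the cysteinyl one the cytosolic enzyme had the higher FPKM in all 24 libraries. These ratios follow from the member values above and carry no test of their own.

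The histidyl and arginyl pairs were the 2 of HPDE whose ratio did not go up. The histidyl pair (HARS over HARS2) was 2.38, 2.21 and 2.37 in HPDE in residual medium, 1.85, 1.94 and 1.93 with PANC-1 EV and 1.65, 1.43 and 1.42 with PPCL-68 EV. The arginyl pair (RARS over RARS2) was 4.28, 4.21 and 3.95, then 3.70, 4.15 and 3.79, then 3.66, 3.17 and 3.56. In the valyl pair neither gene rose, but the ratio did, since VARS2 was lowered further than VARS. The valyl ratio went from 3.70, 3.73 and 3.60 to 4.79, 5.36 and 4.98 and to 4.84, 5.31 and 5.25. Both phenylalanyl pairs did likewise: FARSA and FARSB were not called higher in HPDE, FARS2 fell, and both ratios went up.

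**Figure D4:**
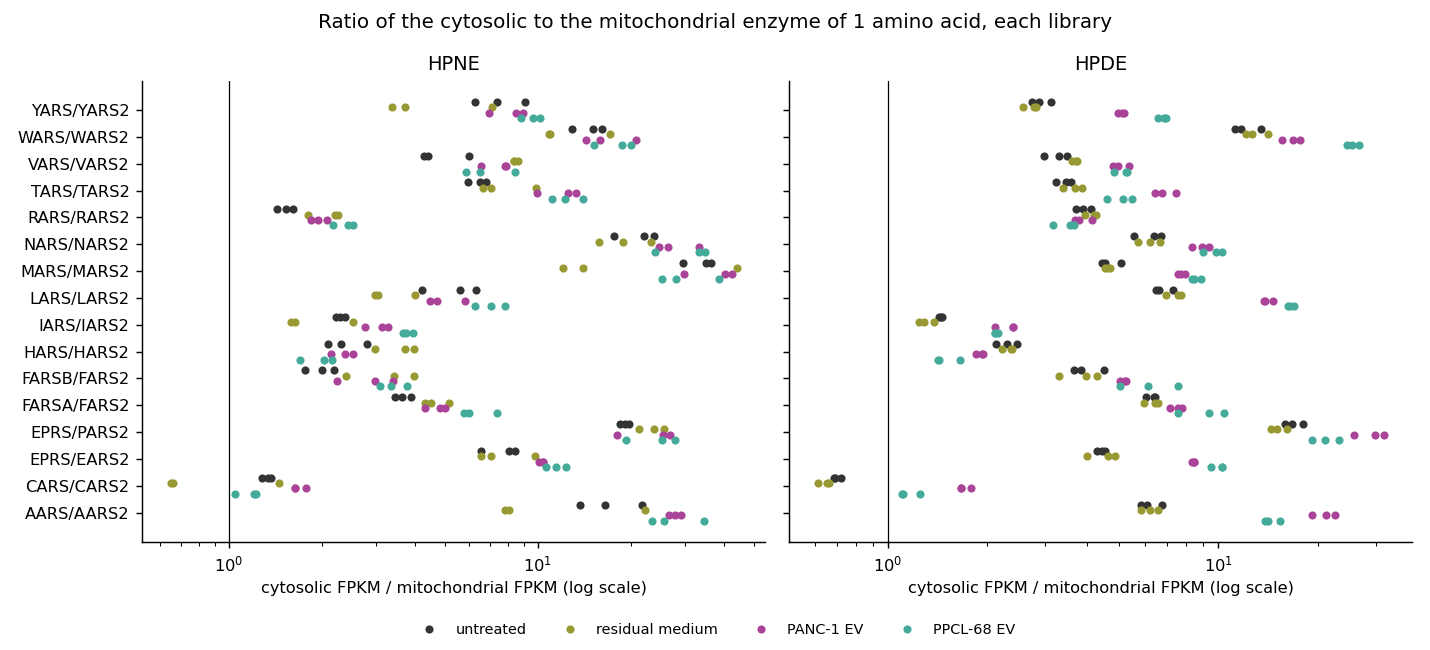
Ratio of cytosolic to mitochondrial FPKM for 16 pairs that serve 1 amino acid (EPRS and FARS2 appear in 2 pairs each), on a log axis; each point is 1 library and colours are treatments. In HPDE the CARS/CARS2 points lie at 0.61 to 0.72 in controls and at 1.11 to 1.78 with vesicles, while HARS/HARS2 moves from 2.21 to 2.38 in residual medium to 1.42 to 1.65 with PPCL-68 EV.

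The 2 vesicle sources, given at the same number of vesicles, differed in HPDE. Of the cytosolic genes 10 were higher and 4 lower with PANC-1 EV than with PPCL-68 EV, and of the mitochondrial genes 6 were higher and 5 lower, where 50.1% of all genes were called, 25.2% higher and 24.9% lower. Of the 12 genes that rose, AARS, CARS, GARS and TARS were higher with PANC-1 EV and MARS, SARS, WARS and YARS with PPCL-68 EV. TARS read 79.3, 85.2 and 81.8 FPKM in residual medium, 111, 116 and 107 FPKM with PANC-1 EV and 91.2, 83.4 and 87.1 FPKM with PPCL-68 EV, a difference between the vesicles of 0.35 (SE 0.04, adjusted p = 2.13e-05, limma). Of the 8 that did not rise, 6 were higher with PANC-1 EV and 0 lower, the greatest difference being in VARS at 0.49 (SE 0.05). In HPNE 0 of 35 genes were called between the vesicles, where 5.47% of all genes were, 3.22% higher and 2.25% lower (limma; voom also called 0, and 5 of the 35 had an unadjusted p under 0.05). Fitted differences there ran from -0.28 to 0.62 for the cytosolic and -0.34 to 0.26 for the mitochondrial genes. With size factors LARS was called (-0.26, adjusted p = 0.0395, limma), and QARS was called without PANC-1 EV replicate 3 (0.79) or PPCL-68 EV replicate 1 (0.82). Without the 4 HPNE libraries that lie apart 13 cytosolic and 5 mitochondrial genes were called, against 36.5% of all genes.

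Few synthetases of HPDE were called between residual medium and untreated cells. IARS fell, at 65.5, 75.7 and 74.5 FPKM against 82.9, 83.7 and 82.7 FPKM untreated (-0.21, SE 0.05, adjusted p = 0.0108, limma), and EARS2 fell by 0.18 (adjusted p = 0.0231; 0.0664 to 0.0757 without any 1 of 4 libraries); the other 33 were not called, where 20% of all genes were, 9.93% higher and 10.1% lower. In HPNE residual medium raised 8 cytosolic and 2 mitochondrial genes and lowered 2 cytosolic genes, where 43.9% of all genes were called, 18.7% higher and 25.2% lower. Those that rose were TARS and 7 of the 8 genes that did not rise with vesicles (all but QARS); the residual-medium libraries enter both comparisons. The genes that fell were CARS and WARS. Of 21 tested genes of the ATF4 and amino-acid response, 5 rose and 6 fell in HPDE, where 20% of all genes were called. In HPNE 2 of 22 rose and 7 fell in the same comparison with untreated cells, where 43.9% were called. FARSB read 11.03, 10.9 and 15.98 FPKM untreated and 28.9, 28.6 and 15.23 FPKM in residual medium (0.85, SE 0.23, adjusted p = 0.0123, limma), so replicate 3 of residual medium lay within the untreated range. CARS fell from 19.03, 18.8 and 18.1 FPKM to 10.4, 11.3 and 19.02 FPKM (-0.48, SE 0.17, adjusted p = 0.036, limma), again with replicate 3 at the untreated level. This comparison turned on that library: without residual-medium replicate 3, 6 cytosolic genes rose and 7 fell, and SARS, AARS, YARS, MARS and IARS joined those that fell, at -0.57, -0.53, -0.44, -0.28 and -0.33. Without residual-medium replicate 1 or 2, or untreated replicate 1 or 2, the calls of CARS, WARS, FARSB, HARS and VARS were lost, and 2 or 3 cytosolic genes were called. With size factors the all-gene median moved from -0.05 to 0.06 and the counts became 9 cytosolic genes higher and 0 lower, with 4 mitochondrial genes higher.

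Set against untreated cells instead of residual medium, the HPDE picture was close to the one above, with the vesicle libraries unchanged. All 12 cytosolic genes rose with either vesicle, where 60.6% of all genes were called with PANC-1 EV (26.3% higher, 34.4% lower) and 66.3% with PPCL-68 EV (30.1% higher, 36.1% lower), and of the other 8, DARS alone rose, with PANC-1 EV (0.20). Of the mitochondrial genes, 9 fell and 1 rose with PANC-1 EV and 8 fell with PPCL-68 EV. In HPNE 8 cytosolic genes rose with PANC-1 EV and 0 fell (limma), where 21.1% of all genes were called, 9.61% higher and 11.5% lower, and 12 rose and 2 fell with PPCL-68 EV, where 42.5% were called, 18.7% higher and 23.8% lower. The HPNE rises with PPCL-68 EV included FARSA and KARS, from the 8 genes that did not rise against residual medium. The KARS call was lost without any 1 of 6 libraries (adjusted p 0.0587 to 0.124, limma). The HPNE median log2 difference of these 8 from untreated cells was 0.18 for PANC-1 EV, 0.20 for PPCL-68 EV. From residual medium it was -0.21 and -0.40, so its sign depended on the control. AARS, CARS, SARS and WARS were not called with PANC-1 EV: SARS read 144, 138 and 113 FPKM untreated. The counts with PANC-1 EV ran from 3 to 12 when 1 library was left out, and without the 4 HPNE libraries that lie apart 16 cytosolic genes rose and 1 fell. The share of all genes called in that last setting is not given here, so its counts have no background. Of the mitochondrial genes in HPNE, YARS2 rose and RARS2 fell with PANC-1 EV, and CARS2, MARS2 and YARS2 rose and AARS2 and RARS2 fell with PPCL-68 EV. With PANC-1 EV the YARS2 call was lost without any 1 of 3 libraries and that of RARS2 without any 1 of 5 (adjusted p 0.0785 to 0.115 and 0.0552 to 0.123, limma). With PPCL-68 EV the MARS2 call was lost without any 1 of 4 libraries and that of AARS2 without any 1 of 5 (0.0873 to 0.117 and 0.0765 to 0.128).

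Against untreated cells 3 members were called in opposite directions in the lines with PPCL-68 EV, namely YARS2, FARSA and CARS2; the difference of these responses against untreated cells was not tested. YARS2 read 8.03, 6.04 and 8.18 FPKM in untreated HPNE cells, 11.8, 11.002 and 8.51 FPKM in residual medium, 10.3, 10.9 and 10.3 FPKM with PANC-1 EV and 10.8, 11.7 and 10.1 FPKM with PPCL-68 EV. It rose by 0.50 with PPCL-68 EV in HPNE (SE 0.13, adjusted p = 0.00889, limma) and fell by 0.32 in HPDE, from 23.99, 22.5 and 23.9 FPKM untreated to the levels given above. FARSA read 21.41, 21.35 and 26.7 FPKM in untreated HPNE and 61.4, 61.1 and 58.1 FPKM in untreated HPDE cells, and it rose by 0.48 in HPNE (SE 0.12) and fell by 0.26 in HPDE. CARS2 read 13.9, 14.6 and 13.5 FPKM in untreated HPNE, 15.7, 17.4 and 13.1 FPKM in residual medium, 13.7, 16.2 and 14.9 FPKM with PANC-1 EV and 18.3, 20.5 and 17.4 FPKM with PPCL-68 EV. Its HPNE rise was 0.39 (adjusted p = 0.0131; 0.0601 without PPCL-68 EV replicate 2, limma), and its HPDE fall from 16.8, 16.4 and 17.6 FPKM was 0.10 (adjusted p = 0.0492, lost without any 1 of 4 of the 6 libraries, 0.0773 to 0.197). For all 3 genes the PPCL-68 EV libraries did not overlap the untreated libraries of their line. On the opposite strand YARS2 overlaps the gene DNM1L by 18063 bases and CARS2 overlaps the gene ING1 by 868 bases. Whether reads of these neighbours enter the values was not tested.

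The lines were compared directly by testing the difference of their responses. The difference between the HPDE and HPNE responses to PANC-1 EV against residual medium was called for 3 cytosolic genes (AARS, EPRS and LARS, all more raised in HPDE) and 1 mitochondrial gene (VARS2, more lowered in HPDE), where 21.2% of all genes were called, 8.65% higher in HPDE and 12.5% lower. For PPCL-68 EV it was called for 4 cytosolic genes (AARS, EPRS, TARS and NARS) and 6 mitochondrial genes, where 25.7% of all genes were, 12.1% higher and 13.6% lower. The response to residual medium differed for 7 cytosolic and 3 mitochondrial genes, where 38.1% of all genes were called, 21% higher and 17.1% lower. Of the 35 members, 4, 10 and 10 were therefore called, shares below, near and below their backgrounds. The counts moved most with HPNE residual-medium replicate 3, 1 of the 4 libraries that lie apart: without it 7 cytosolic and 4 mitochondrial genes were called for PANC-1 EV, 10 and 6 for PPCL-68 EV and 14 and 6 for residual medium. The last comparison had 4 cytosolic calls without HPNE untreated replicate 1 or residual-medium replicate 1 or 2, and 1 mitochondrial call without any 1 of several libraries of either line.

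Genes that work with the synthetases were read as lists of known members, chosen with earlier results of these data known. Their counts therefore carry no test, and they are given beside the shares of all genes called. Those called higher were 13.9% (PANC-1 EV) or 20.3% (PPCL-68 EV) for HPNE cells, then 28.2% or 31.3% for HPDE cells, and those called lower were 10.3%, 19.7%, 35.1% and 36.4% in the same order. Of 22 genes of the ATF4 and amino-acid response, 16 rose and 1 fell in HPNE with PANC-1 EV against residual medium and 18 rose and 1 fell with PPCL-68 EV. In HPDE, 18 and 19 of the 21 tested rose and 1 fell in each. The median log2 differences were 1.19, 1.63, 0.94 and 1.17 in that order, above all 4 cytosolic synthetase medians (0.36, 0.46, 0.50 and 0.49). The largest changes on the list were those of SLC7A11, the cystine transporter, at 2.33, 2.69, 2.18 and 2.37, TRIB3, a feedback inhibitor of ATF4, at 2.70, 2.74, 1.91 and 1.86, and DDIT3, the neighbour of MARS, at 2.15, 2.12, 2.67 and 2.24. ATF4 itself, named after its values were seen, rose by 0.63, 0.79, 0.48 and 0.56. The exceptions that fell were ALDH18A1, an enzyme of proline synthesis, in HPNE (-0.96 and -1.06) and ATF5, a related transcription factor, in HPDE (-0.59 and -0.28), both also named after their values were seen.

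The other lists hold few genes, and their counts are set against the same shares. Of 5 tested genes for tRNA export and delivery to the cytosolic ribosome, XPOT, the tRNA export receptor, rose in all 4 comparisons, by 0.69, 0.82, 0.96 and 1.14. Of the others, EEF1A1 and EEF1B2 rose in HPDE with PPCL-68 EV, and EEF1D and EEF2 fell in HPDE with both vesicles. The scaffold genes of the multisynthetase complex did not move as one: AIMP2 rose in HPNE with PPCL-68 EV (0.59) and in HPDE with PANC-1 EV (0.27), AIMP1 rose in HPDE with PANC-1 EV (0.16), and EEF1E1 fell in HPDE with both (-0.43 and -0.52). The 4 genes of mitochondrial glutaminyl-tRNA amidation and methionyl-tRNA formylation, the steps that follow some mitochondrial synthetases, included 2 that fell in HPDE with PANC-1 EV and 4 after PPCL-68 EV, and 0 were called in HPNE. PET112, an amidation subunit, fell by 0.28 and 0.61. Of 9 mitochondrial translation factors, 2 rose and 3 fell in HPDE with PANC-1 EV and 1 rose and 5 fell with PPCL-68 EV, called shares near those of all genes (63.3% and 67.7%), and MTIF2, an initiation factor, was the 1 that rose in HPNE with each vesicle. Of the genes for editing and tRNA quality, 2 of 5 rose and 1 fell in HPDE with each vesicle; in HPNE 1 of 4 fell with PANC-1 EV and 1 rose with PPCL-68 EV.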

How the data were processed

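RNA from 24 cultures was sequenced from non-directional libraries, per the labels' protocols. CASAVA, STAR, HTSeq and DESeq2 and the build hg19 are named in the submitters' processing notes, with no versions given in the sources used here. The authors deposited FPKM per gene; multiplied by gene length, 100% of values were whole multiples of a step to within 0.05 reads, which gave back the reads and the depths. All replicates of a group differed by more than counting noise and were counted separately. Differences were tested with limma 3.58.1 (R 4.3.3) on log2(FPKM + 1), which understates changes of low genes, for genes with a mean of at least 1 FPKM: 1 fit per line with 12 libraries, and 1 with all 24 for contrasts between lines, with an empirical Bayes trend and Benjamini-Hochberg adjustment over all genes. The p-values measure the spread between these cultures. In fits without the 4 HPNE libraries that lie apart, the choice of libraries narrows that spread. Same-numbered libraries deviated together in every pair only between the PANC-1 EV and PPCL-68 EV groups of HPNE (correlations 0.29 to 0.57, mean 0.45). Replicate 1 lay apart in both of these groups, so the correlations do not settle whether numbers pair the libraries. The main fits used no pairing, and the replicate block shared 1 effect per number over all groups of a line. Alternatives were a pseudocount of 0.1, no filter, size factors, only the groups compared, a replicate block, voom on the recovered reads, each library left out and the 4 HPNE libraries that lie apart left out together. The fit was run on simulated data with 1 spread per line shared by all genes and no library lying apart. That setting does not cover the HPNE groups, in each of which 1 library lies apart. Members and gene lists were chosen with earlier results of these data known. Values by library are printed for up to 4 members with the largest and 2 with the smallest mean difference over both vesicle comparisons with residual medium, in each class and line, among those called in at least 1; for their partners for the same amino acid, some of them in 1 line only; for KARS and GARS; and for members called in opposite directions in the lines. Untreated values are printed where a comparison turns on them. Promoters and their coordinates are from RefSeq GRCh38.p14, a different build from the deposited tables.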

Additional observations from a re-analysis of the deposited data

Results flagged for a closer look

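The results listed here are differences between the lines in the response to a treatment, tested as an interaction in limma over all 12377 genes (Benjamini-Hochberg adjusted p under 0.05). Each value is the log2 response of HPDE minus that of HPNE, and each HPNE response includes a library that lies apart from its replicates. No cause of these differences was tested.

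In the response to PANC-1 EV against residual medium, AARS differed by 0.68 (adjusted p = 0.0124), EPRS by 0.52 (adjusted p = 0.00307), LARS by 0.24 (adjusted p = 0.0471) and VARS2 by -0.53 (adjusted p = 0.00275). In the response to PPCL-68 EV, AARS (0.70, adjusted p = 0.00819) and EPRS (0.36, adjusted p = 0.0246) were again higher in HPDE, while TARS (-0.38, adjusted p = 0.0113) and NARS (-0.39, adjusted p = 0.0194) were lower. Among the mitochondrial enzymes the difference for PPCL-68 EV was -0.92 for VARS2 (adjusted p = 8.04e-06), -0.49 for WARS2, -0.45 for CARS2 and -0.44 for YARS2, and 0.64 for AARS2 and 0.39 for RARS2. VARS2 read 5.08, 4.85 and 3.61 FPKM in HPNE in residual medium and 3.73 to 4.64 FPKM with vesicles, so the fall seen in HPDE was not called there.

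In the response to residual medium against untreated cells, KARS (-0.38), EPRS (-0.39), FARSA (-0.52), VARS (-0.55) and FARSB (-0.90) were lower in HPDE than in HPNE, as were LARS2 (-0.67), EARS2 (-0.37) and YARS2 (-0.38), while WARS (0.48) and QARS (0.57) were higher. Adjusted p-values ran from 0.00422 for LARS2 to 0.0385 for EARS2 (limma).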

How the results depend on the processing

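Without the 4 HPNE libraries that lie apart, shares of all genes called also rose wherever they are given above. Gains of members in that setting are to be read beside this. Counts are of members called in either direction, cytosolic and then mitochondrial, of 20 and 15. Without the 4 HPNE libraries that lie apart they became 19 and 8 (from 12 and 1) for PANC-1 EV against residual medium, 19 and 9 for PPCL-68 EV (from 14 and 5; median gap between the classes 0.79), 17 and 8 for residual medium against untreated cells (from 10 and 2), 17 and 5 for PANC-1 EV against untreated (from 8 and 2; gap 0.34), and 13 and 5 between the vesicles (from 0 and 0), with 8 mitochondrial genes for PPCL-68 EV against untreated (from 5).

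With no filter on low values, HPNE counts became 0 mitochondrial (PANC-1 EV against residual medium), 3 (PPCL-68 EV), 6 cytosolic (residual medium against untreated), 1 mitochondrial (PANC-1 EV against untreated), 3 (PPCL-68 EV against untreated) and 1 cytosolic (between vesicles), and 4 and 1 for the line difference in residual medium. With only the groups compared in the fit they became 0 and 3 mitochondrial for the vesicles against residual medium, 5 and 0 for residual medium against untreated, and 4 and 1 for that line difference. With size factors they became 4 mitochondrial (HPNE residual medium against untreated), 1 mitochondrial (PANC-1 EV against untreated), 1 cytosolic (between vesicles) and 2 cytosolic (line difference, PPCL-68 EV), and the untreated HPDE minus HPNE differences of NARS (-0.10), YARS (-0.059), CARS2 (-0.089), WARS (-0.083) and MARS (-0.10) turned negative. With a pseudocount of 0.1 and with voom, the HPDE PANC-1 EV gap was 0.71 and 0.71 (from 0.67) and the untreated gap between lines -0.37 and -0.39 (from -0.31); voom called 3 mitochondrial genes for HPDE residual medium against untreated. The cause of these changes was not tested.

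With the replicate block, HPNE PPCL-68 EV against untreated had 3 mitochondrial calls (from 5) and the line difference for PANC-1 EV 2 (from 1). Between the vesicles in HPNE the block still gave 0. As the block spans all groups of the line, this is not a paired test of the 2 vesicle groups. Over all members and comparisons, 545 results kept their direction and side of the threshold under the block, 4 gained a call and 11 lost it; it changed no other call. When 1 library was left out, 3690 were kept, 80 gained and 220 lost.

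Leaving out 1 library at a time gave these ranges of cytosolic calls, mitochondrial calls and the median gap: HPDE PANC-1 EV vs PPCL-68 EV 10 to 14, 10 to 11 and -0.020 to 0.072; HPDE PANC-1 EV vs residual medium 16 to 18, 9 to 11 and 0.66 to 0.73; HPDE PANC-1 EV vs untreated 15 to 17, 9 to 11 and 0.67 to 0.72; HPDE PPCL-68 EV vs residual medium 16 to 17, 8 to 10 and 0.62 to 0.71; HPDE PPCL-68 EV vs untreated 16 to 19, 7 to 8 and 0.50 to 0.57; HPDE minus HPNE in PANC-1 EV vs residual medium 2 to 7, 1 to 4 and 0.11 to 0.24; HPDE minus HPNE in PPCL-68 EV vs residual medium 3 to 10, 5 to 7 and 0.037 to 0.27; HPDE minus HPNE in residual medium vs untreated 4 to 14, 1 to 6 and -0.15 to 0.19; HPDE residual medium vs untreated 1 to 2, 0 to 1 and -0.01 to 0.05; HPNE PANC-1 EV vs PPCL-68 EV 0 to 1, 0 to 0 and -0.16 to -0.086; HPNE PANC-1 EV vs residual medium 9 to 16, 0 to 3 and 0.36 to 0.55; HPNE PANC-1 EV vs untreated 3 to 12, 0 to 2 and 0.33 to 0.41; HPNE PPCL-68 EV vs residual medium 12 to 17, 2 to 8 and 0.41 to 0.77; HPNE PPCL-68 EV vs untreated 13 to 13, 2 to 4 and 0.39 to 0.49; HPNE residual medium vs untreated 2 to 13, 0 to 5 and -0.23 to 0.05; untreated HPDE vs untreated HPNE 15 to 18, 14 to 15 and -0.39 to -0.25.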
